A study of Mus musculus with 6 samples.

Results

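The anti-apoptotic relatives of BCL2 were followed in mouse acute myeloid leukaemia (AML) with and without Prmt6, a gene for an arginine methyltransferase. The members are the genes named Bcl2, Bcl2l1, Bcl2l2, Mcl1, Bcl2a1a, Bcl2a1b and Bcl2a1d, taken by symbol from the deposited expression table, and they are 7 of its 30037 named genes. RNA was measured in L-GMP cells, leukaemia cells with a progenitor-like phenotype, sorted from bone marrow of AML mice aged 8 to 10 weeks. One group of 3 libraries came from wild-type leukaemia (WT) and the other group of 3 from Prmt6-/- leukaemia (knockout). The labels name neither the oncogene that drives the leukaemia nor the part of Prmt6 that is missing. Whether each library came from its own animal is not stated in the labels, so a p-value reflects no more than the spread among these 6 libraries, which may be technical.

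As background, BCL2 and its anti-apoptotic relatives sit mainly on the outer mitochondrial membrane, where they bind and hold back the pore-forming proteins BAX and BAK and the BH3-only proteins that switch these on. A cell in which the restraint fails releases cytochrome c, which assembles the apoptosome and starts the caspases. Myeloid cells depend on several of these genes at once: MCL1 is a short-lived protein on which blood progenitors and many leukaemias rely, and A1, the product of the Bcl2a1 genes, is made in granulocytes, mast cells and other blood cells and is known as a target of NF-kB.

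The Bcl2a1 genes are near-identical copies, and the sequences are shown first because they decide how far the RNA of the copies can be told apart. In the GENCODE M21 annotation of GRCm38, Bcl2a1a lies at chr9:88956900-88962419 on the plus strand, Bcl2a1b at chr9:89199209-89207827 on the plus strand and Bcl2a1d at chr9:88723285-88731914 on the minus strand. Each has a coding sequence of 516 bases. The first 100 coding bases, from the GENCODE M21 transcripts, are given 5′ to 3′ with capitals at the 7 positions where at least one copy differs.
Bcl2a1a: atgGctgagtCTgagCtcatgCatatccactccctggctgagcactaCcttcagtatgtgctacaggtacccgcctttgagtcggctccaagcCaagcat
Bcl2a1b: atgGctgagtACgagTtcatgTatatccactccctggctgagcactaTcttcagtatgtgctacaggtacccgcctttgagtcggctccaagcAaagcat
Bcl2a1d: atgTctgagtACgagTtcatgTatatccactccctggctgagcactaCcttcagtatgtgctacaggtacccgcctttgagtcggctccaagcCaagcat

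Over the whole coding sequence Bcl2a1a and Bcl2a1b were 97.9% identical with 11 differences, Bcl2a1a and Bcl2a1d 98.6% with 7, and Bcl2a1b and Bcl2a1d 98.8% with 6. With positions counted from 1 at the A of the start codon and the base of Bcl2a1b first, the 6 differences of Bcl2a1d were G4T, T48C, A94C, G312A, C381G and T490A. Stretches of 31 bases found in no other gene made up 20.4% of the Bcl2a1a transcript, 11.2% of Bcl2a1b and 10.9% of Bcl2a1d. By contrast they made up 99.5% of Mcl1, 99.4% of Bcl2, 100% of Bcl2l1 and 87.2% of Bcl2l2. The split of reads among the copies is therefore uncertain, and their summed level is given beside each copy. A further copy, Bcl2a1c, was listed at 0 in all 6 libraries.

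The stretches upstream of the copies were alike too. The windows below run from 250 to 65 bases before the RefSeq start of each gene, in GRCm38.p6 coordinates, and are printed in the direction of transcription. Bcl2a1a is at chr9:88956670-88956855 (plus strand), Bcl2a1b at chr9:89199023-89199208 (plus strand) and Bcl2a1d at chr9:88731915-88732100 (minus strand). Capitals mark TGAATCA, a match to the AP-1 motif TGANTCA, and GAGGAAGT, the core bound by PU.1 and other ETS factors.
Bcl2a1a: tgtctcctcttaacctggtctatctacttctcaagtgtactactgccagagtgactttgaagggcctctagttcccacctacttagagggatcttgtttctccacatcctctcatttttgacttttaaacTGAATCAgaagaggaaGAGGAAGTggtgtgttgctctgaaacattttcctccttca
Bcl2a1b: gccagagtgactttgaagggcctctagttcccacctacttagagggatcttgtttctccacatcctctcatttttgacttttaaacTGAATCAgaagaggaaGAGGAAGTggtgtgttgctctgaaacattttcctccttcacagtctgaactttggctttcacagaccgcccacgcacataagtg
Bcl2a1d: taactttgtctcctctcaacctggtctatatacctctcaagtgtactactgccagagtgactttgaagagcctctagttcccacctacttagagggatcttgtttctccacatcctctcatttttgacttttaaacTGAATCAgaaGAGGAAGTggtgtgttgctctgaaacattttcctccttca

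Where the windows aligned, Bcl2a1a and Bcl2a1b were 100% identical over 142 bases, Bcl2a1a and Bcl2a1d 97.8% over 180, and Bcl2a1b and Bcl2a1d 99.3% over 136. The percentages leave out 6 bases between the marked motifs that Bcl2a1d lacks. The ETS core stood 104 bases before the RefSeq start in Bcl2a1a and Bcl2a1d and 148 bases before it in Bcl2a1b. The AP-1 match stood 120, 164 and 114 bases before the start in Bcl2a1a, Bcl2a1b and Bcl2a1d. Bcl2a1a and Bcl2a1b were identical where aligned, so their distances differ by where RefSeq places each start and not by the letters around the motifs. Read on both strands of windows of the same length, GAGGAAGT occurred in 1.6% and TGANTCA in 5.09% of 32851 mouse promoters. Neither motif was found in the windows of Bcl2, Bcl2l1, Bcl2l2 or Mcl1, and the kappa-B motif was found only at 1 of the 3 Bcl2l1 starts. Motifs of C/EBP, CRE, STAT, TATA and CCAAT were searched too and were not found in any member's window. As the windows of the copies are near-identical, their matches are not separate finds. A match is a description of letters and not a measured binding site.

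Prmt6 itself differed between the labelled groups. On the deposited log2 scale it stood at 7.82, 7.60 and 7.41 in the WT libraries and at 5.42, 5.46 and 5.48 in the knockout libraries, so that the groups did not overlap (limma, difference -2.16, SE 0.0977, adjusted p = 3.57e-06). The authors' deposited table gives it a log2 fold change of -7.66. Library medians were alike at 7.72 to 7.75, correlations across genes were 0.9987 to 0.9992 within groups and 0.9933 to 0.9961 between them, and no library repeated another. Of 15454 genes tested, 18.0% were called lower in the knockout and 15.0% higher, so that 33.0% were called in either direction. The deposited values are not counts, so the read depth behind them is unknown.

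All 7 members were at 1 or above in 3 or more libraries and so were tested. The 3 Bcl2a1 copies fell several fold in the knockout leukaemia cells, Mcl1 fell slightly, Bcl2 rose slightly, and Bcl2l1 and Bcl2l2 did not pass the test. Thus 4 of the 7 members were called lower and 1 higher, against 18.0% and 15.0% of all tested genes. The 3 copies can share reads, so they are not separate measurements and the count overstates the number of distinct genes. Among the other 4 members only Mcl1 was lower and only Bcl2 higher. The groups did not overlap for the same 5 members, 4 lower and 1 higher, where 24.4% of all tested genes were lower without overlap, 23.0% were higher without overlap and 47.4% were apart in either direction. The median difference over the 7 members was -0.32, the value of Mcl1, and over all tested genes it was 0.01. Here and below a difference is knockout minus WT on the deposited log2 scale, and a gene is called when limma's adjusted p is under 0.05. Since this is bulk RNA, fewer cells of a type and less RNA per cell cannot be told apart.

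**Figure D1:**
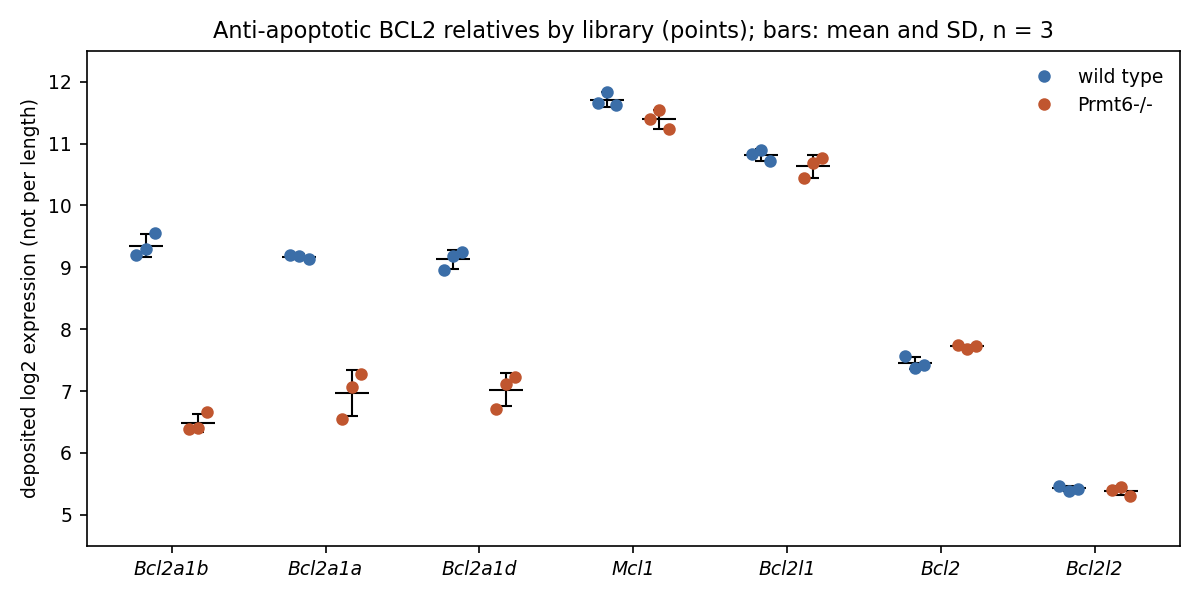
Deposited log2 level of each of the 7 genes in each library (points, y axis) for the 3 WT and 3 knockout libraries, with group means and SD. The knockout points of the Bcl2a1 copies lie between 6.39 and 7.28 and all WT points of these copies at or above 8.96, while the points of Bcl2l1 and Bcl2l2 overlap.

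Bcl2a1b had the largest difference of the 7 members. Its log2 level was 9.20, 9.30 and 9.56 in the WT libraries and 6.39, 6.40 and 6.66 in the knockout libraries. Every knockout library was below every WT library by a wide gap. The means were 9.35 ± 0.19 and 6.48 ± 0.15 (SD, n = 3 each), and the difference was -2.87 (SE 0.109, 95% interval -3.11 to -2.62, limma adjusted p = 1.24e-06), a level 7.31-fold higher in WT than in knockout. Counted from the most negative, Bcl2a1b ranked 6 among all 15454 tested genes.

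Bcl2a1a was at 9.20, 9.18 and 9.13 in WT and at 6.55, 7.07 and 7.28 in the knockout. The WT libraries were nearly equal, whereas the knockout libraries spread over a wider range, with knockout library 1 the lowest, and the groups were far apart. The means were 9.17 ± 0.04 and 6.97 ± 0.37 (SD, n = 3 each), with a difference of -2.20 (SE 0.156, limma adjusted p = 2.80e-05) or 4.61-fold. Its rank from the most negative was 19.

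Bcl2a1d was at 8.96, 9.19 and 9.25 in WT and at 6.71, 7.12 and 7.22 in the knockout. Again the groups did not overlap and knockout library 1 was the lowest. The means were 9.13 ± 0.15 and 7.02 ± 0.27 (SD, n = 3 each), with a difference of -2.12 (SE 0.132, limma adjusted p = 1.75e-05) or 4.34-fold. Its rank was 22, and only 26 tested genes in all had a difference of -2 or below.

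The authors' deposited table gives log2 fold changes of -4.53 for Bcl2a1b (adjusted p = 5.58e-100), -3.26 for Bcl2a1a (adjusted p = 6.82e-12) and -3.17 for Bcl2a1d (adjusted p = 4.79e-45). All 3 values in the authors' deposited table are larger in size than those from the deposited levels. Such a gap ran through the table and depended on the level: among genes called in both with the same sign, the difference here divided by the fold change in the authors' deposited table had a median of 0.105 for 325 genes with a mean level under 5, 0.674 for 2641 genes from 5 to 10 and 0.881 for 1678 genes of at least 10. The transformation behind the levels is not named, and the cause of the gap was not tested.

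Summed on the linear scale, to lessen the effect of how reads were divided among them, the 3 copies were at a log2 level of 10.71, 10.81 and 10.91 in WT and 8.14, 8.48 and 8.66 in the knockout. On the deposited scale the sum was 5.2-fold higher in WT, with means of 10.81 ± 0.10 and 8.43 ± 0.26 and a difference of -2.38. The exact two-sided permutation p was 0.1, the smallest that 3 against 3 libraries allow. Leaving out any 1 library gave differences of -2.50 to -2.24 for the sum.

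The balance among the copies was read from ratios within each library. The log2 ratio of Bcl2a1b to Bcl2a1d was 0.23, 0.11 and 0.31 in WT and -0.32, -0.72 and -0.56 in the knockout, so that Bcl2a1b was above Bcl2a1d in every WT library and below it in every knockout library. The ratio of Bcl2a1a to Bcl2a1b was 0.01, -0.12 and -0.43 in WT and 0.16, 0.67 and 0.62 in the knockout, also without overlap. Their differences were -0.75 and 0.67 (exact permutation p = 0.1 each, 0.117 after adjustment over 7 ratios). That p is the smallest possible here, so neither could pass the threshold. The ratio of Bcl2a1a to Bcl2a1d overlapped between the groups with a difference of -0.09 (exact permutation p = 0.6), and its sign turned to 0.02 without WT library 1.

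As a share of the linear sum of the copies, Bcl2a1b made up 35.0%, 35.1% and 39.3% in WT and 29.7%, 23.6% and 24.9% in the knockout. It was the copy with the largest mean share in WT, 36.5% ± 2.44, and the one with the smallest in the knockout, 26.1% ± 3.22 (SD, n = 3 each, exact permutation p = 0.1). Bcl2a1d went from 31.3% ± 1.41 to 37.6% ± 1.09 (exact permutation p = 0.1, n = 3 each) and Bcl2a1a from 32.2% ± 3.05 to 36.4% ± 2.76 (exact permutation p = 0.2, n = 3 each). How the counting divided shared reads among copies that differ at 6 to 11 coding positions was not tested. The sum, ratios and shares of the copies hold for the deposited scale only. In the authors' deposited table the log2 fold changes are larger in size, at -4.53 for Bcl2a1b, -3.26 for Bcl2a1a and -3.17 for Bcl2a1d. Sums, ratios and shares were not computed from those.

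**Figure D2:**
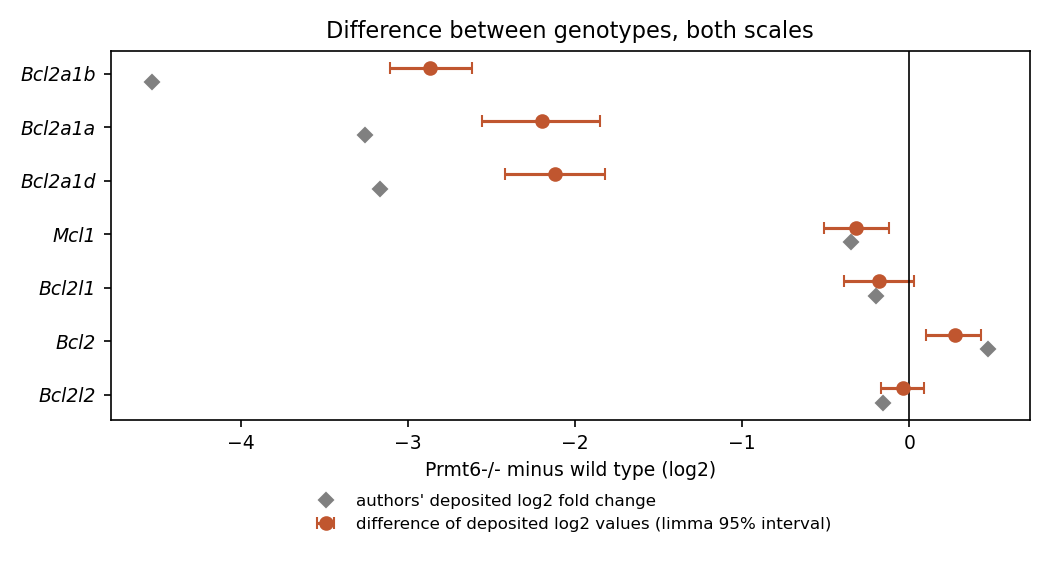
Difference knockout minus WT on the deposited log2 scale (x axis) with its 95% interval from limma for each of the 7 genes. The intervals of Bcl2a1b (-3.11 to -2.62), Bcl2a1a (-2.56 to -1.85) and Bcl2a1d (-2.42 to -1.82) lie far below 0, and those of Bcl2l1 and Bcl2l2 include 0.

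Mcl1, whose protein restrains BAK and is rapidly turned over, lies at chr3:95658788-95663176 on the plus strand. It was at 11.66, 11.84 and 11.62 in WT and at 11.39, 11.54 and 11.24 in the knockout. The highest knockout library was just below the lowest WT library. The means were 11.71 ± 0.12 and 11.39 ± 0.15 (SD, n = 3 each), and the difference was -0.32 (SE 0.0859, 95% interval -0.51 to -0.12, limma adjusted p = 0.0195) or 1.25-fold. The authors' deposited table gives a similar log2 fold change, -0.35 (adjusted p = 0.00216). The call ended under quantile normalization (difference -0.22, limma adjusted p = 0.0841), and it also ended without WT library 2 (-0.25, 0.0719), without knockout library 1 (-0.32, 0.0554) or without knockout library 3 (-0.24, 0.0623).

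Bcl2, the founding member, lies at chr1:106538178-106714274 on the minus strand and was the only member that rose. It was at 7.57, 7.37 and 7.42 in WT and at 7.75, 7.68 and 7.73 in the knockout. All 3 knockout libraries were above all 3 WT libraries. The means were 7.45 ± 0.10 and 7.72 ± 0.03 (SD, n = 3 each), with a difference of 0.27 (SE 0.0717, 95% interval 0.10 to 0.43, limma adjusted p = 0.0198) or 1.2-fold higher in the knockout. The authors' deposited table puts the log2 fold change at 0.47 (adjusted p = 0.0339). The call ended without WT library 2 (0.22, limma adjusted p = 0.0734), WT library 3 (0.25, 0.0539), knockout library 1 (0.25, 0.0626) or knockout library 3 (0.26, 0.0526).

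Bcl2l1, which encodes BCL-XL, lies at chr2:152780668-152831728 on the minus strand. It was at 10.83, 10.90 and 10.71 in WT and at 10.44, 10.69 and 10.77 in the knockout. The groups overlapped, and knockout library 1 alone lay well below the WT values. The difference was -0.18 (SE 0.0909, 95% interval -0.39 to 0.03, limma adjusted p = 0.165), and both a lower and a slightly higher level lie within the interval. It was -0.08 without knockout library 1 and -0.10 under quantile normalization.

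Bcl2l2, which encodes BCL-W, lies at chr14:54883377-54888234 on the plus strand. It was at 5.47, 5.39 and 5.42 in WT and at 5.40, 5.45 and 5.31 in the knockout, and the groups overlapped. The difference was -0.04 (SE 0.0584, 95% interval -0.17 to 0.09, limma adjusted p = 0.647). The interval holds for the deposited scale only. These values were near those of Prmt6 in the knockout libraries (5.42, 5.46 and 5.48), so little Bcl2l2 RNA may lie behind them. The authors' deposited table gives log2 fold changes of -0.20 for Bcl2l1 (adjusted p = 0.159) and -0.16 for Bcl2l2 (adjusted p = 0.792).

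Measured within each library, the summed Bcl2a1 copies were lower relative to each of the other members. Their log2 ratio to Bcl2 went from 3.36 ± 0.19 in WT to 0.71 ± 0.28 in the knockout, and that to Bcl2l1 from 0.00 ± 0.18 to -2.20 ± 0.09. Their log2 ratio to Bcl2l2 went from 5.38 ± 0.12 to 3.04 ± 0.30, and that to Mcl1 from -0.90 ± 0.16 to -2.96 ± 0.34 (SD, n = 3 each). The groups were apart for these 4 ratios, each with an exact permutation p of 0.1 and 0.117 after adjustment over 7 ratios, so none could pass the threshold.

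To set the genes against each other, linear levels were divided by the length of the longest coding transcript, from 0.817 kb for Bcl2a1b to 7.19 kb for Bcl2. On this log2 level per kb, WT cells had Mcl1 first at 9.94 ± 0.12, followed by Bcl2a1b at 9.64 ± 0.19, Bcl2a1a at 9.46 ± 0.04, Bcl2l1 at 9.45 ± 0.10 and Bcl2a1d at 9.35 ± 0.15. Neighbours among these 5 genes touched or overlapped in their library values at this length. With the length of all exons Bcl2l1 was at 8.62 ± 0.10 in WT (SD, n = 3), below every library value of the Bcl2a1 copies. Bcl2 at 4.61 ± 0.10 and Bcl2l2 at 3.49 ± 0.04 were far below them (SD, n = 3 each).

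On the deposited scale the order per kb was different in the knockout. Mcl1 at 9.62 ± 0.15 and Bcl2l1 at 9.27 ± 0.18 stayed at the top, and all 3 Bcl2a1 copies were below both. Bcl2a1a at 7.26 ± 0.37, Bcl2a1d at 7.23 ± 0.27 and Bcl2a1b at 6.77 ± 0.15 overlapped as neighbours, and Bcl2 at 4.87 ± 0.03 and Bcl2l2 at 3.46 ± 0.07 came last (SD, n = 3 each).

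Of the 7-gene sum per kb, the Bcl2a1 copies made up 54.3%, 53.8% and 59.0% in WT and 19.9%, 21.6% and 25.4% in the knockout. They were thus more than any other member in WT and less than Mcl1 in each knockout library. They were also less than Bcl2l1 in each knockout library at this length, but more than it with the length of all exons (23.3%, 25.3% and 30.2% against 20.7%, 21.2% and 23.8%). The mean shares were 55.7% ± 2.83 and 22.3% ± 2.78 for the copies, 25.3% ± 1.63 and 42.3% ± 4.75 for Mcl1, and 18.1% ± 1.31 and 33.2% ± 2.09 for Bcl2l1 (SD, n = 3 each, exact permutation p = 0.1 for each gene's share). Bcl2 made up 0.631% and 1.58% and Bcl2l2 0.291% and 0.59%. With the length of all exons in place of the longest coding transcript, a choice added after seeing the data, the mean shares were 60.6% ± 2.71 and 26.3% ± 3.57 for the copies, 27.5% ± 1.91 and 49.8% ± 5.09 for Mcl1, and 11.0% ± 0.87 and 21.9% ± 1.62 for Bcl2l1 (SD, n = 3 each). Shares add up to a fixed whole, so those of Mcl1 and Bcl2l1 were higher in the knockout while their mean levels were not. Levels and shares per kb hold for the deposited scale only, where Bcl2a1b, Bcl2a1a and Bcl2a1d differed by -2.87, -2.20 and -2.12. The authors' log2 fold changes are larger in size, at -4.53, -3.26 and -3.17. The knockout share of the copies and their order beside Bcl2l1 therefore depend on the scale, and shares from the authors' fold changes were not computed.

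**Figure D3:**
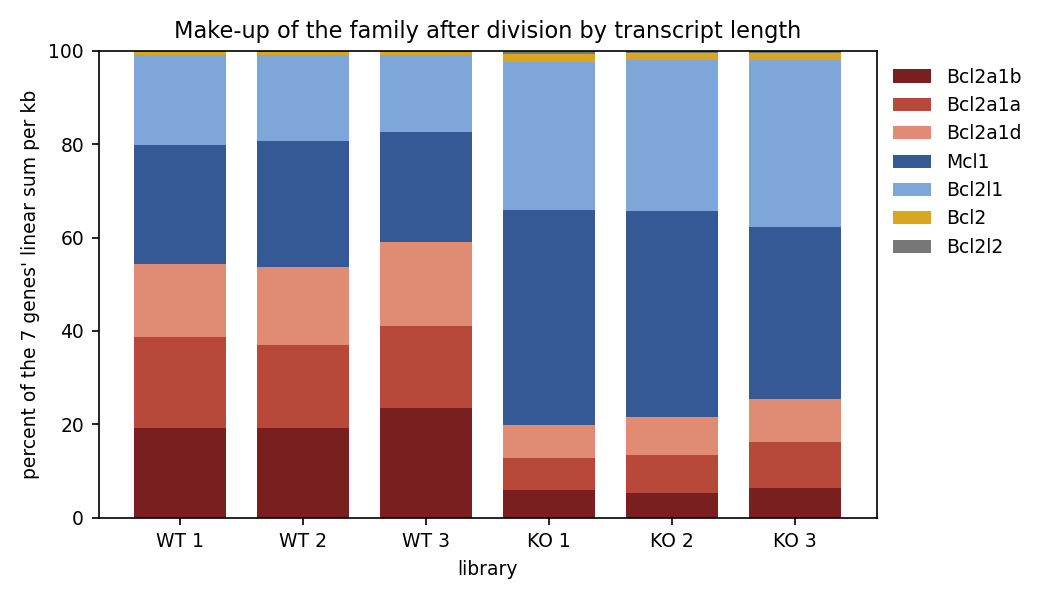
Share of the summed linear level per kb of the 7 genes (y axis, percent) in each of the 6 libraries, stacked by gene with the 3 Bcl2a1 copies grouped. The Bcl2a1 copies take 53.8% to 59.0% in the WT libraries and 19.9% to 25.4% in the knockout libraries.

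The partners that the anti-apoptotic proteins bind were read next. For the count of each list below, the shares over all tested genes were 18.0% called lower and 15.0% called higher. Of the BH3-only genes 7 of 8 were tested, and 3 were called lower and 1 higher, with a median difference of -0.15. Bcl2l11, which encodes BIM, a strong ligand of all anti-apoptotic members, was at 10.30, 10.39 and 10.27 in WT and at 11.21, 11.01 and 10.90 in the knockout. It rose by 0.72 without overlap (SE 0.0809, limma adjusted p = 2.31e-04) or 1.65-fold.

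Pmaip1, which encodes NOXA, a ligand mainly of MCL1 and A1, was at 13.54, 13.42 and 13.57 in WT and at 12.14, 12.62 and 12.72 in the knockout, so the knockout libraries were all lower. It fell by 1.02 on the log2 scale (limma adjusted p = 4.21e-04). Bid, whose product is cut by caspase and then activates BAX and BAK, fell from 12.06 to 11.69 (difference -0.37, limma adjusted p = 0.00111). Bmf, at a low level of 4.43 in WT, fell as well (-0.31, limma adjusted p = 4.68e-04), and the authors' deposited table puts its log2 fold change at -3.03. Bbc3 (PUMA), Bad and Bik did not pass the test.

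Of the pore-forming genes Bax, Bak1 and Bok, 1 of 3 was called lower and none higher. Bax was at 11.24, 11.29 and 11.27 in WT and at 11.07, 11.06 and 11.04 in the knockout. Its groups did not overlap and it fell by 0.21 (SE 0.0472, limma adjusted p = 0.00833). That call ended under quantile normalization (-0.11, limma adjusted p = 0.11). Bak1 overlapped between the groups (-0.21, limma adjusted p = 0.224), and its difference was -0.33 without knockout library 1 and -0.08 without knockout library 2.

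Of the other BCL2 relatives 4 were tested and 2 were called lower, Bcl2l13 (-0.23, limma adjusted p = 0.0103) and Bcl2l14 (-0.25, limma adjusted p = 0.024). For Bcl2l14, at a mean of 4.58 in WT, the authors' deposited table has a log2 fold change of -1.92. The call of Bcl2l13 ended under quantile normalization (-0.15, limma adjusted p = 0.0607). That of Bcl2l14 ended without knockout library 1 (-0.23, limma adjusted p = 0.0782) or 2 (-0.24, 0.0771).

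Downstream of the mitochondria, 12 genes of the apoptosome, the caspases and the inhibitors of apoptosis (IAPs) were tested. Of these 8 were called lower and none higher, against 18.0% and 15.0% of all tested genes, with a median of -0.27. Birc3, which encodes cIAP2, fell by 0.93 (10.80 ± 0.11 to 9.87 ± 0.17, SD, n = 3 each, limma adjusted p = 1.17e-04). The effector caspase gene Casp6 fell (-0.64, limma adjusted p = 3.58e-04), as did Xiap, whose product blocks caspases (-0.36, limma adjusted p = 0.00149). The list holds both promoters and blockers of apoptosis, and members of both kinds were among those that fell.

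Among genes for enzymes that add or remove ubiquitin on MCL1 or mark it for this, 7 were tested and 1 was lower, Usp9x, whose product stabilizes MCL1 (-0.24, limma adjusted p = 0.0224). The median of these genes was 0.02, near that of all genes. The Usp9x call ended without WT library 1 (-0.24, limma adjusted p = 0.0563), WT library 2 (-0.23, 0.0706) or knockout library 1 (-0.18, 0.0644).

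**Figure D4:**
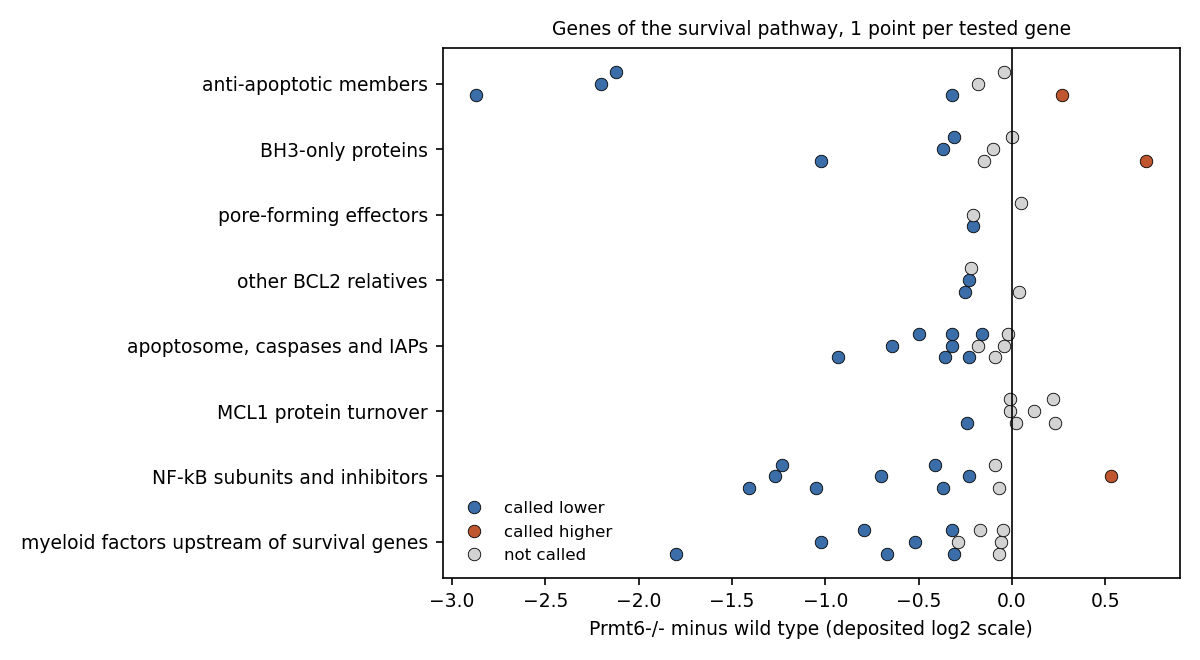
Difference knockout minus WT on the deposited log2 scale (x axis) for each tested gene (points) of the members and the 7 pathway lists (rows). List medians run from -0.41 for NF-kB subunits and inhibitors to 0.02 for genes of MCL1 protein turnover, and the 3 Bcl2a1 copies lie left of all listed pathway genes.

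Since A1 is known as an NF-kB target, the subunits and inhibitors of that pathway were read beside it. Of 11 genes 8 were called lower and 1 higher, Nfkbiz (0.53, limma adjusted p = 0.0124), and the median was -0.41. Relb, a subunit of the non-canonical branch, was at 10.96, 10.95 and 11.04 in WT and at 9.21, 9.84 and 9.66 in the knockout. The knockout libraries were all lower, and the difference was -1.41 (SE 0.136, limma adjusted p = 1.04e-04). Its partner Nfkb2 fell by 1.27 (limma adjusted p = 0.00155). The inhibitor genes Nfkbie (-1.23, limma adjusted p = 1.05e-04) and Nfkbib (-0.70, limma adjusted p = 1.15e-04) fell too. Rela (-0.09, limma adjusted p = 0.212) and Tnfaip3 (-0.07, limma adjusted p = 0.698) did not pass the test. A part of this pathway in the lower Bcl2a1 level was not tested.

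Among 12 myeloid factors and cytokine receptors that act upstream of survival genes, 7 were called lower and none higher, with a median of -0.31. Spi1, which encodes PU.1, was at 14.17, 14.29 and 14.23 in WT and at 13.12, 13.08 and 13.41 in the knockout. The groups were well apart and the difference was -1.02 (SE 0.0816, limma adjusted p = 4.31e-05) or 2.03-fold. Csf2rb, the shared receptor chain for GM-CSF and IL-3, fell by 0.67 (limma adjusted p = 2.81e-05), Csf3r, the G-CSF receptor gene, by 0.79 (limma adjusted p = 9.93e-04) and Stat5a by 0.52 (limma adjusted p = 5.56e-04). Whether any of these factors has a part in the lower Bcl2a1 level was not tested.

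Markers of cell types moved unevenly beside the Bcl2a1 copies. Their counts, here and for the cell types below, stand against 18.0% of all tested genes called lower and 15.0% called higher. Of the progenitor genes, Cd34 was at 10.44 ± 0.11 in WT and 10.47 ± 0.05 in the knockout (SD, n = 3 each). Kit was at 10.14 ± 0.21 and 9.85 ± 0.19 (SD, n = 3 each), and Cebpa was low at 5.17 and 5.11. Of 10 granulocyte-macrophage progenitor markers 2 were lower, Spi1 among them, and 2 higher, with a median difference of -0.02. Elane rose the most (1.45, limma adjusted p = 3.65e-06, and 0.81 under quantile normalization). The summed log2 level of these markers was 17.66 to 18.08 in WT and 18.45 to 18.61 in the knockout. This sum mainly follows Elane, the highest of them, at 16.56 ± 0.15 in WT and 18.01 ± 0.03 in the knockout (SD, n = 3 each).

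Of 10 mature neutrophil markers 1 was lower and 2 higher, and their summed level was 10.68 to 10.89 in WT and 10.73 to 11.70 in the knockout. Of 7 tested monocyte and macrophage markers 2 were lower and 2 higher, among them Csf1r (-1.83, limma adjusted p = 4.40e-05) and Ccr2 (1.07, limma adjusted p = 2.80e-05), and their summed level was 14.89 to 15.02 in WT and 14.93 to 14.97 in the knockout. Of 5 tested mast cell and basophil markers 2 were lower and 2 higher. Their summed level was 11.19 to 11.60 in WT and 10.95 to 11.15 in the knockout, with Tpsb2 and Cma1 listed at 0 in every library. The part of these markers in the Bcl2a1 result was not tested.

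Lymphoid, erythroid and megakaryocyte markers were lower in level. The summed level was 6.94 to 6.98 in WT and 6.95 to 7.0 in the knockout for T cells (1 of 6 tested lower, 1 higher, with Trac listed at 0 in every library). It was 9.62 to 9.75 and 8.49 to 8.84 for B cells, where 1 of 6 tested genes was lower and none higher. For the erythroid list it was 6.09 to 6.11 and 6.12 to 6.20 (0 of 7 lower, 1 higher), and for the megakaryocyte list 6.28 to 6.33 and 6.34 to 6.37, with none of 5 called either way.

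The genes most like Bcl2a1b were those with the smallest root mean square distance over the 6 libraries, each gene taken relative to its own WT mean, among 7455 tested genes at or above the median level. They were Cfb (complement factor B, distance 0.244), Slc2a6 (a sugar transporter, 0.271), Epha7 (an ephrin receptor, 0.339), Ltb (lymphotoxin beta, 0.373) and Icam1 (an adhesion molecule, 0.403). Their differences were -2.83, -2.72, -3.07, -3.04 and -2.41, and that of Ltb is -4.88 in the authors' deposited table. Bcl2a1a ranked 14 and Bcl2a1d 15 in the same order. As the likeness rests mainly on the distance between 2 groups, it is a description and no test.

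The neighbours of the copies were read to see how far the difference reached along the chromosome. Within 300 kb of the span of the copies, 10 protein-coding genes were tested, of which 2 were lower and none higher. Of all tested genes 18.0% were lower and 15.0% higher, so the count of lower neighbours is near the share over all genes. Both lie next to a copy: Mthfsl, 2.99 kb from Bcl2a1d, fell from 9.18 ± 0.07 to 8.63 ± 0.18 (SD, n = 3 each, difference -0.55, limma adjusted p = 0.00201). Mthfs, 2.85 kb from Bcl2a1b, fell from 8.96 ± 0.07 to 8.27 ± 0.18 (SD, n = 3 each, difference -0.69, limma adjusted p = 5.83e-04). These are related folate genes that may share reads.

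The genes Trim43c and Trim43b, which lie between the copies, differed by 0.02 and 0.01 at low levels of 5.44 and 3.95 in WT and did not pass the test. The annotation also has a readthrough gene, Gm29094, that joins Bcl2a1b exons with Mthfs. It was at 2.49, 2.57 and 2.70 in WT and 2.46 in each knockout library (difference -0.13, limma adjusted p = 0.0565).

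Around Mcl1, 15 protein-coding genes within 300 kb were tested, of which 4 were lower and 2 higher. These counts are not far from the 18.0% and 15.0% of all tested genes. The nearest on either side, Ensa and Adamtsl4, differed by 0.00 and -0.20, and the largest fall was that of Ctss, the cathepsin S gene (-0.84, limma adjusted p = 7.83e-04), 102 kb away. Prpf3 rose (0.33, limma adjusted p = 0.00423). The calls of Golph3l, Adamtsl4, Anp32e and Arnt each ended without at least one of the libraries. Prmt6 is on the same chromosome as Mcl1, 14.6 Mb away.

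**Figure D5:**
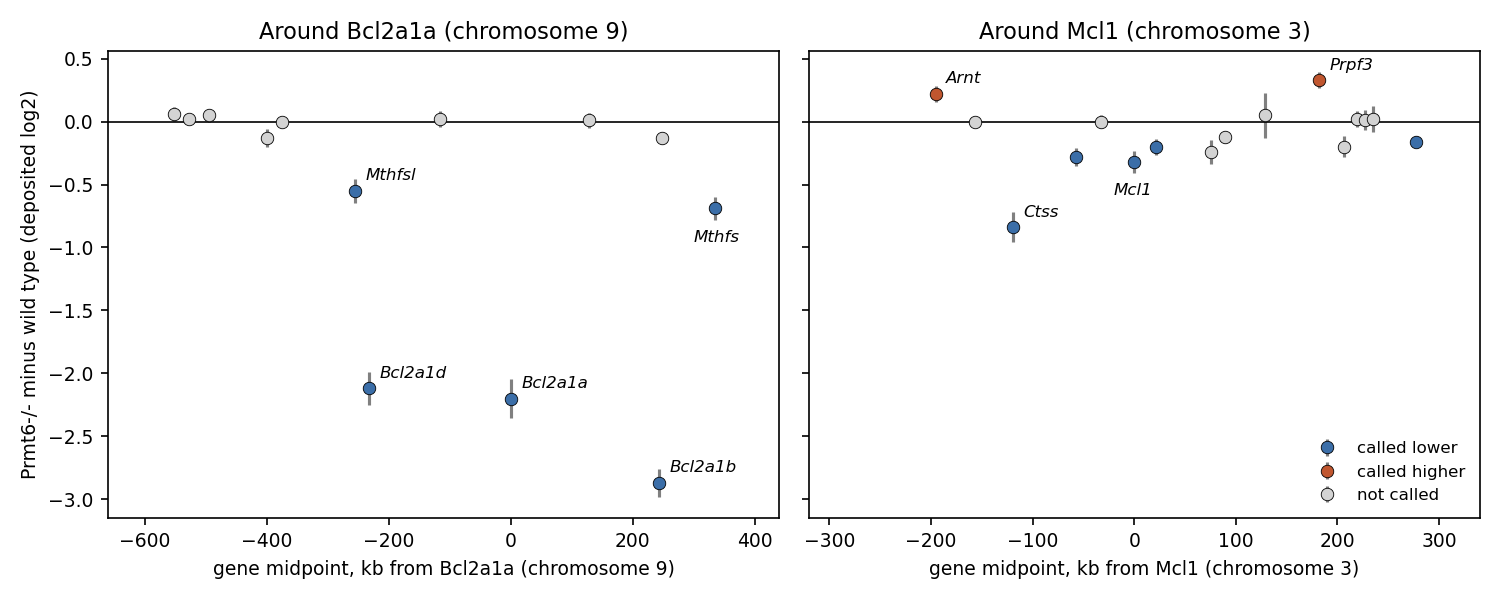
Difference knockout minus WT on the deposited log2 scale (y axis) against distance in kb from Bcl2a1a (left) or Mcl1 (right) for protein-coding neighbours within 300 kb of each locus, with bars of limma's SE. The Bcl2a1 copies stand at -2.87 to -2.12, Mthfs and Mthfsl at -0.69 and -0.55, and the other 8 neighbours of the copies between -0.13 and 0.06.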

How the data were processed

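Poly(A) RNA libraries were made with oligo(dT) beads, random-primed cDNA and 15 PCR cycles, per the labels' protocols. Reads were handled with Trim Galore, kallisto and HOMER on build GRCm38, per the submitters' processing notes, which give no versions. The authors deposited log2 expression values normalized between samples, and, per the file headers, the table was written by HOMER's differential expression command from counts. The transformation and the counting annotation are not given in the sources used here. Differences of low genes are smaller on this scale than in the authors' fold changes. For each gene the authors deposited a log2 fold change as well, with its p-value raw and adjusted, by a test the table leaves unnamed. The 1 row without a gene name (0.00333% of rows) was left out.

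WT and knockout were compared over all genes with limma 3.58.1 in R 4.3.3 (moderated two-sided test, mean-variance trend, Benjamini-Hochberg adjustment over 15454 genes at 1 or above in 3 or more libraries, threshold 0.05), tested on simulated data first. Sums and ratios had an exact two-sided permutation test (smallest p 0.1). The members and gene lists were chosen with earlier results of these data known. Besides the members, up to 4 called genes per pathway list with the smallest p, Bcl2l11, Bax, Bak1, up to 3 per marker list, the 5 genes most like Bcl2a1b and the neighbours could be named. 1 gene that this rule names is not reported here. Nfkbiz, Rela, Tnfaip3, Bbc3, Bad, Bik, Cd34, Kit and Cebpa were named in addition, after their values were seen. Genes were placed with GENCODE M21, and promoters came from RefSeq (GRCm38.p6). Alternatives were 2 other normalizations, 2 other filters, a pseudocount, no trend, a replicate block, each library left out and the authors' test.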

Additional observations from a re-analysis of the deposited data

How the results depend on the processing

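Over 14 settings and 1 added length, 1128 alternative values were computed, of which 1056 were classed as unchanged. For a gene this meant the same direction and side of the threshold. For a sum, ratio or share it meant the same sign only, and for a count a change within a set factor. Smaller moves of counts are therefore among the 1056. Of the rest, 54 lost the call, 17 counts moved by more and 1 value changed sign. The 3 Bcl2a1 copies stayed called under every setting. Leaving out 1 library gave -2.96 to -2.77 for Bcl2a1b, -2.36 to -2.0 for Bcl2a1a and -2.22 to -1.97 for Bcl2a1d. It gave -0.40 to -0.24 for Mcl1, 0.22 to 0.32 for Bcl2, 3 to 4 members lower and 0 to 1 higher. It gave -0.16 to 0.02 for the ratio of Bcl2a1a to Bcl2a1d, which changed sign at 0.02 without WT library 1. The other BCL2 relatives had 1 to 3 genes lower, and MCL1 turnover had 0 to 1 lower and 0 to 1 higher. Under quantile normalization Mcl1 was at -0.22 and no longer called, 0 pore-forming genes and 1 other relative were lower, and 1 MCL1 turnover gene was higher. That gene list also had 1 higher with the replicate block and in the authors' deposited table. Quantile normalization called 2378 of all genes lower and 2827 higher, against 2778 and 2324.

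Same-numbered libraries had correlations of their deviations of 0.09, 0.07 and 0.17, not all over 0.1, so the numbers were not taken as pairs, although every library correlated best with its own number. With the replicate block 2800 genes were lower and 2274 higher, with adjusted p of 0.00279 for Mcl1 and 0.0232 for Bcl2 (limma). The near-identity of the copies, the unnamed transformation and 3 libraries per group limit precision, and depth is unknown. The cause of each change in call was not tested.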
